A study of Homo sapiens with 12 samples.

Results

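The genes described here encode the proteins of the 2 ribosomes of a human cell, the cytosolic ribosome and the mitochondrial ribosome. They were chosen by symbol, as entries named RPL, RPS or RPLP for the cytosolic ribosome and MRPL or MRPS for the mitochondrial one, leaving out the RPS6 kinases and RPS4Y copies. Where a symbol had several entries the one with the highest mean was used, and the value had to lie above the table's lowest value in all 11 libraries. This gave 364 genes of 20318 entries, 281 under cytosolic names and 83 under mitochondrial names. The cytosolic names covered 76 standard subunits (46 of the large 60S and 30 of the small 40S subunit), 194 pseudogenes, 7 paralogues, 3 read-through transcripts and the binding protein RPS19BP1. The mitochondrial names covered 77 standard subunits (51 of the large 39S and 26 of the small 28S subunit), 5 pseudogenes and MRPS36, whose product is known as a part of a mitochondrial dehydrogenase complex. A further 210 cytosolic and 3 mitochondrial symbols, none of them a standard subunit, were at the lowest value in at least 1 library and are not members. Entries that reached 1 CPM (the count scaled to library size, 59.4 normalised counts here) in 3 or more libraries were tested, which took in all 153 standard subunits, 43 of the 194 cytosolic pseudogenes and 12721 entries in all.

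RNA was sequenced from Z138, a line of lymphoblasts that carries no engineered change per its labels and is known as a mantle cell lymphoma line. AU-15330 is a degrader that brings SMARCA2, SMARCA4 and PBRM1, proteins of SWI/SNF chromatin remodelling complexes, to the ubiquitin ligase VHL, so the mRNA of its targets is no check of the labels. The groups were AU-15330 at 0.5 µM for 8 h (n = 3), AU-15330 at 0.5 µM for 24 h (n = 3), the vehicle DMSO for 8 h (n = 2 libraries with values of their own) and DMSO for 24 h (n = 3). Another column labelled DMSO 8 h repeats the values of replicate 2 and was counted with it as 1 library. The labels of replicates 2 and 3 both name this column, so which of the 2 samples it holds is uncertain, and it is called replicate 2 here. The labels give each time point a batch of its own, so time and batch cannot be told apart, and they do not say that replicates were separate cultures, so p-values reflect the spread of these libraries alone.

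Libraries held an estimated 50812608 to 67596094 counts. The B-cell line was checked against marker genes. 6 B-cell markers (CD79A, CD79B, MS4A1, PAX5, CD22, CD74) had summed normalised counts of 177316 to 199447 (AU-15330, 8 h), 130459 to 145687 (AU-15330, 24 h), 230418 to 239553 (DMSO, 8 h) and 247327 to 257307 (DMSO, 24 h). Under AU-15330 5 of the 6 fell at 8 h and 6 of 6 at 24 h. Markers of T cells (5 of 6 in the table, none at 0) summed to at most 346 normalised counts under AU-15330 and 863 in DMSO, those of myeloid cells (2 of 6) to at most 22.0 and 31.3, and those of erythroid cells and megakaryocytes (3 of 6) to at most 35.8 and 28.2. The part of these marker differences in the results was not tested.

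Cytosolic ribosomes translate nuclear-encoded mRNA, and their proteins are made in near-equal amounts. Most of these mRNAs are known to begin with a cytosine followed by a run of pyrimidines, the 5′ terminal oligopyrimidine (TOP) start, through which LARP1 and mTOR control their translation. Mitochondrial ribosomes translate the few mRNAs of the mitochondrial genome, but all of their proteins are encoded in the nucleus, made in the cytosol and imported. Their genes are commonly described as targets of NRF1 and ETS factors such as GABP.

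The starts of these genes show the TOP part of this division in sequence, while ETS and NRF1 letters set the 2 ribosomes apart less. RefSeq (GRCh38.p14) gave a window of 250 bases before to 50 bases after the annotated start for 61 of the 76 cytosolic and 69 of the 77 mitochondrial standard subunits. An annotated start at a C that opens an unbroken run of at least 5 pyrimidines was found in 41 cytosolic genes (67.2%), 5 mitochondrial genes (7.2%) and 1104 of the 27305 windows in the table (4.0%). Shown here are 30 bases, 15 before the start and 15 from it, for members whose values follow. Capitals mark the annotated first base and, where it is a pyrimidine, the unbroken run of C and T from it.
RPLP0, chr12:120201097-120201126, minus strand: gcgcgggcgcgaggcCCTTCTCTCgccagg
RPS6, chr9:19380222-19380251, minus strand: aagcggaagttggccCTCTTTTCCgtggcg
RPS19, chr19:41860240-41860269, plus strand: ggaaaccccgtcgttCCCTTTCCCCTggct
RPL21, chr13:27251543-27251572, plus strand: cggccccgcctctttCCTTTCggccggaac
RPL28, chr19:55385917-55385946, plus strand: tcgcccctcgccttcCTCTTTCCgtctcag
RPL12, chr9:127451392-127451421, minus strand: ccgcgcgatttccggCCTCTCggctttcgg
RPL3, chr22:39319609-39319638, minus strand: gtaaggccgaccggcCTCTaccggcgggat
MRPL42, chr12:93467499-93467528, plus strand: tttcgtgggaccaggAttgaaacaagatgg
MRPL24, chr1:156741074-156741103, minus strand: ggacgctgagggcccAtgtgctgaaaatcc
MRPL19, chr2:75646768-75646797, plus strand: tgattactgggagctGtagtcttgacgtga
MRPL16, chr11:59810764-59810793, minus strand: tgaacacaacttccgGccccactgagcggt
MRPL36, chr5:1799823-1799852, minus strand: cagcgtccgcgtgccAgtgcgcagacgcag
Of the 7 cytosolic genes shown, RPL3 opened on a run of 4 pyrimidines and the others on runs of 6 to 11, and the 5 mitochondrial ones opened on a purine. CCGGAAG, the core of an ETS site, stood on either strand in 34.4% of cytosolic, 42.0% of mitochondrial and 10.7% of all windows. AAGATGGCG, the core of a YY1 site, stood in 8.2%, 18.8% and 1.8%, and the NRF1 core GCGCATGCG in 1.6%, 4.3% and 2.1%. ETS and YY1 letters can share bases, but no member had such an overlap, and TATAAA stood in 8.2%, 2.9% and 12.0%. Of the mitochondrial genes called higher at 8 h 7 of 28 held CCGGAAG, and 20 of 39 of those not called did. For AAGATGGCG these counts were 5 of 28 and 8 of 39, for GCGCATGCG 2 of 28 and 1 of 39, and for TATAAA 0 of 28 and 2 of 39. Whether the called and the other genes differ in any of these letters was not tested. All of these are matches of letters in a window, not sites.

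Per kilobase of transcript (the median length of a gene's principal GENCODE transcripts), the median cytosolic subunit was at 82722.0 normalised counts and the median mitochondrial one at 2457, a ratio of 33.7. The spread within each ribosome was wide. The 10th and 90th percentiles were 21045 and 152518 per kilobase for cytosolic and 1107 and 5679 for mitochondrial subunits. The 60S and 40S medians were 80014 and 92924, and the 39S and 28S medians 2591 and 2236. In these bulk libraries, fewer cells of a type and less RNA per cell cannot be told apart.

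Summed over the 76 cytosolic standard subunits, AU-15330 and DMSO libraries overlapped at 8 h, and AU-15330 libraries were higher at 24 h. The sum was 10.2%, 9.49% and 9.96% of a library's normalised counts under AU-15330 at 8 h, against 9.98% and 9.84% in DMSO at 8 h. The lowest AU-15330 library was below and the highest was above both DMSO libraries. At 24 h it was 10.62%, 10.61% and 10.42% under AU-15330, against 10.0%, 9.86% and 10.1% in DMSO. All 3 AU-15330 libraries were above all 3 DMSO libraries, and the means differed by 5.58% of the DMSO mean. The sum of normalised counts itself differed by 1.69% at 24 h, and the summed counts of all entries were lower in the AU-15330 libraries.

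The 77 mitochondrial standard subunits summed to 0.58%, 0.55% and 0.57% of normalised counts under AU-15330 at 8 h, against 0.52% and 0.53% in DMSO at 8 h. At 24 h they summed to 0.53%, 0.53% and 0.52% under AU-15330, against 0.51%, 0.49% and 0.51% in DMSO. The groups did not overlap at either time, and at 8 h the mean was 8.46% above the DMSO mean, at 24 h 4.62% above it. For the sums of normalised counts the difference was 9.08% at 8 h and 0.75% at 24 h, and at 24 h the groups then overlapped. The cytosolic over the mitochondrial sum was 17.3 ± 0.10 under AU-15330 and 18.9 ± 0.50 in DMSO at 8 h (SD, n = 3 and n = 2). It was 20.1 ± 0.11 under AU-15330 and 19.9 ± 0.16 in DMSO at 24 h (SD, n = 3 each). The AU-15330 libraries at 8 h, at 17.2 to 17.4, had the lowest ratios of the 11, and at 24 h the groups overlapped.

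**Figure D1:**
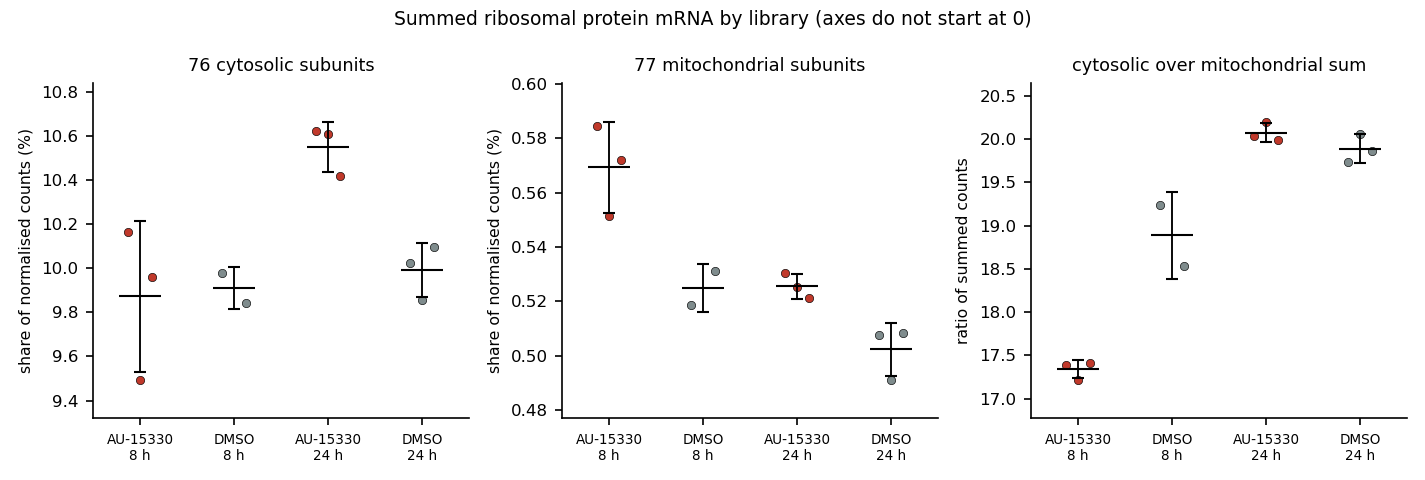
Share of each library's normalised counts taken by the 76 cytosolic (left) and 77 mitochondrial (middle) standard subunits, and the ratio of the sums (right), on axes that do not start at 0. Points are libraries and bars the mean with SD; the mitochondrial share is highest and the ratio lowest in the AU-15330 libraries at 8 h, while the cytosolic share is highest in those at 24 h.

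At 8 h the calls in the mitochondrial ribosome were nearly all rises, while few cytosolic ribosomal protein genes were called for AU-15330 against DMSO. Of the 77 mitochondrial standard subunits 30 rose and 2 fell, and of the 76 cytosolic ones 2 rose and 1 fell (limma, adjusted p under 0.05). Over all entries tested 44.2% were called, 22.9% higher and 21.4% lower, so that the 41.6% of mitochondrial subunits called was near the share of all entries. Differences are given as log2(normalised count + 60), the added 60 being about 1 CPM. The median was 0.12 for mitochondrial subunits, 0.0012 for cytosolic subunits and 0.020 for all entries. The mitochondrial values ran from -0.41 to 0.48, and 58 of 77 lay above 0. All cytosolic values lay between -0.21 and 0.15, and for 74 of 76 the 95% interval of the difference stayed within 0.25 of 0, which held for 19.3% of all entries. Their median SE was 0.043, against 0.087 for all entries. Without DMSO 8 h replicate 1, 20 mitochondrial subunits were called in all, and without AU-15330 8 h replicate 2, 7 cytosolic ones were. Under 5 other scalings the cytosolic median lay between -0.0073 and 0.014, so its sign depended on the scaling, and the mitochondrial median between 0.097 and 0.13.

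Rises were found in both mitochondrial subunits, and over all entries 22.9% were called higher and 21.4% lower. Of the 26 proteins of the 28S subunit 15 rose and 1 fell, with a median of 0.16, and of the 51 of the 39S subunit 15 rose and 1 fell, with a median of 0.077. Among subunits with a bacterial counterpart 19 of 48 rose and 1 fell, and among those without one 11 of 29 rose and 1 fell. Whether the 2 subunits or these classes differ was not tested. None of the 30 proteins of the 40S subunit was called by limma at 8 h (0 at an unadjusted p under 0.05), and 2 of the 46 of the 60S subunit rose and 1 fell.

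**Figure D2:**
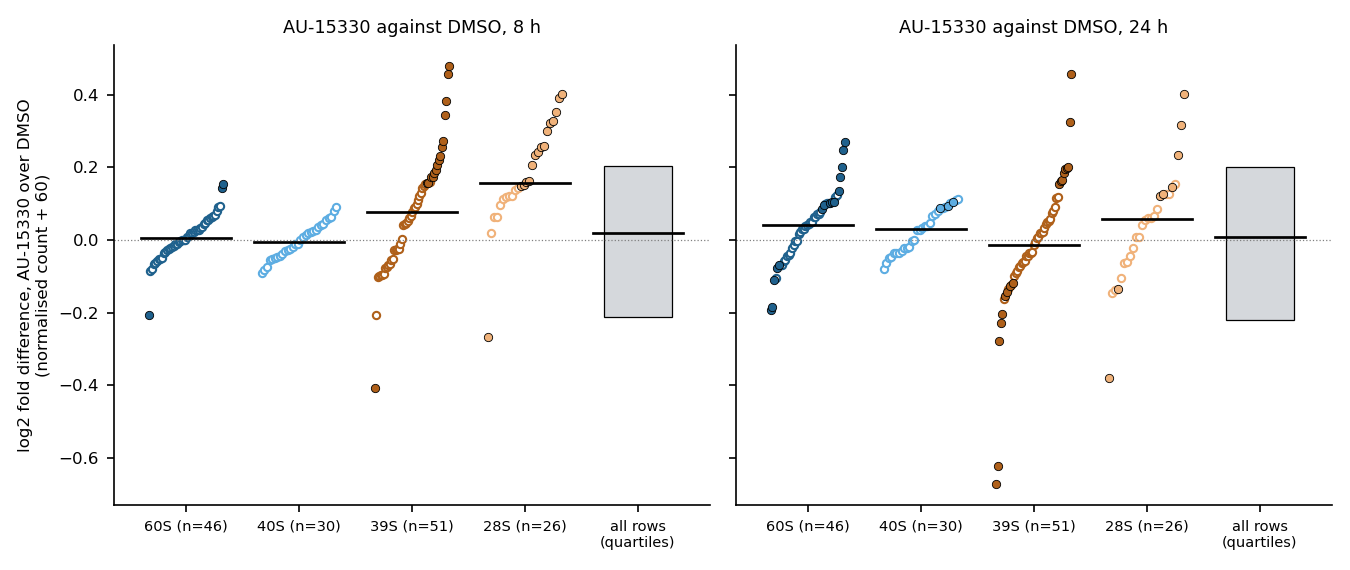
Log2 fold difference (AU-15330 over DMSO) of each standard subunit at 8 h (left) and 24 h (right), sorted within the 60S, 40S, 39S and 28S subunits. Filled points passed adjusted p under 0.05, black lines are medians and the grey box spans the quartiles of all 12721 tested entries; the mitochondrial points spread wider than the cytosolic ones and lie mostly above 0 at 8 h.

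The largest rise of a mitochondrial subunit at 8 h was in MRPL42 (chr12:93467488-93516213 in GRCh38), a protein particular to the mitochondrial large subunit. It had 8346, 7588 and 7650.4 normalised counts in AU-15330 libraries at 8 h, against 5679 and 5564 in DMSO libraries at 8 h. The groups were far apart, and the difference was 0.48 ± 0.054 (SE), or 1.39-fold, with an adjusted p of 3.44e-05 in limma. MRPL24 (chr1:156737303-156741590), the counterpart of bacterial protein L24, had 6669, 6339.8 and 6827 normalised counts in AU-15330 libraries at 8 h, against 5019 and 4589 in DMSO libraries at 8 h. Every AU-15330 library was above every DMSO library, with a difference of 0.46 ± 0.057 (SE; limma, adjusted p = 6.24e-05). MRPL19, which in the bacterial ribosome lies at the interface of the 2 subunits, had 6457, 6502 and 6457 normalised counts in AU-15330 libraries at 8 h, against 4945 and 4951 in DMSO libraries at 8 h, closely grouped on each side. It differed by 0.38 ± 0.039 (SE; limma, adjusted p = 1.63e-05).

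In the small subunit the largest rises were in MRPS6 and MRPS28. MRPS6 (S6 in bacteria) had 2911, 2719.9 and 2770.5 normalised counts in AU-15330 libraries at 8 h, against 2049 and 2161 in DMSO libraries at 8 h, with no overlap and a difference of 0.40 ± 0.056 (SE; limma, adjusted p = 0.000119). MRPS28, a protein of the small subunit, had 2237, 2175 and 2286 normalised counts in AU-15330 libraries at 8 h, against 1702 and 1672 in DMSO libraries at 8 h, again with no overlap, and differed by 0.39 ± 0.064 (SE; limma, adjusted p = 0.000411). MRPS12, the counterpart of the decoding-site protein S12, differed by 0.30 ± 0.058 and MRPS30, which despite its name sits in the large subunit, by 0.19 ± 0.046 (limma, adjusted p = 0.00119 and 0.00539). MRPS18C, 1 of 3 related S18 proteins, differed by 0.35 ± 0.11 (limma, adjusted p = 0.0265), but its call was lost without any of 3 libraries (adjusted p = 0.185 without DMSO 8 h replicate 1, and 0.00845 to 0.185 over 23 alternatives). Its relatives MRPS18B and MRPS18A were not called, at 0.12 ± 0.075 and -0.070 ± 0.053. MRPS27 differed by 0.26 ± 0.089 (limma, adjusted p = 0.038), a call lost without any of 5 libraries (adjusted p = 0.138 without DMSO 8 h replicate 2, and 0.0122 to 0.138 over 23 alternatives).

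The 2 mitochondrial subunits that fell at 8 h were MRPL16 and MRPS34. MRPL16 (chr11:59806135-59810872), the counterpart of bacterial L16 near the peptidyl transferase centre, had 3264, 3217 and 3359 normalised counts in AU-15330 libraries at 8 h, against 4401 and 4347 in DMSO libraries at 8 h. Every AU-15330 library lay below both DMSO libraries, and the difference was -0.41 ± 0.042 (SE), or 0.753-fold (limma, adjusted p = 1.37e-05). MRPS34, whose human mutations are known to destabilise the small subunit, had 6544, 6612 and 6134 normalised counts in AU-15330 libraries at 8 h, against 7535 and 7964 in DMSO libraries at 8 h, and differed by -0.27 ± 0.053 (SE; limma, adjusted p = 0.00142). MRPL12, known also to bind the mitochondrial RNA polymerase, was not called at 8 h, at -0.054 ± 0.041, and neither were MRPL10, MRPL11 and MRPL58, a release factor built into the ribosome, at -0.10, 0.099 and 0.067.

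**Figure D3:**
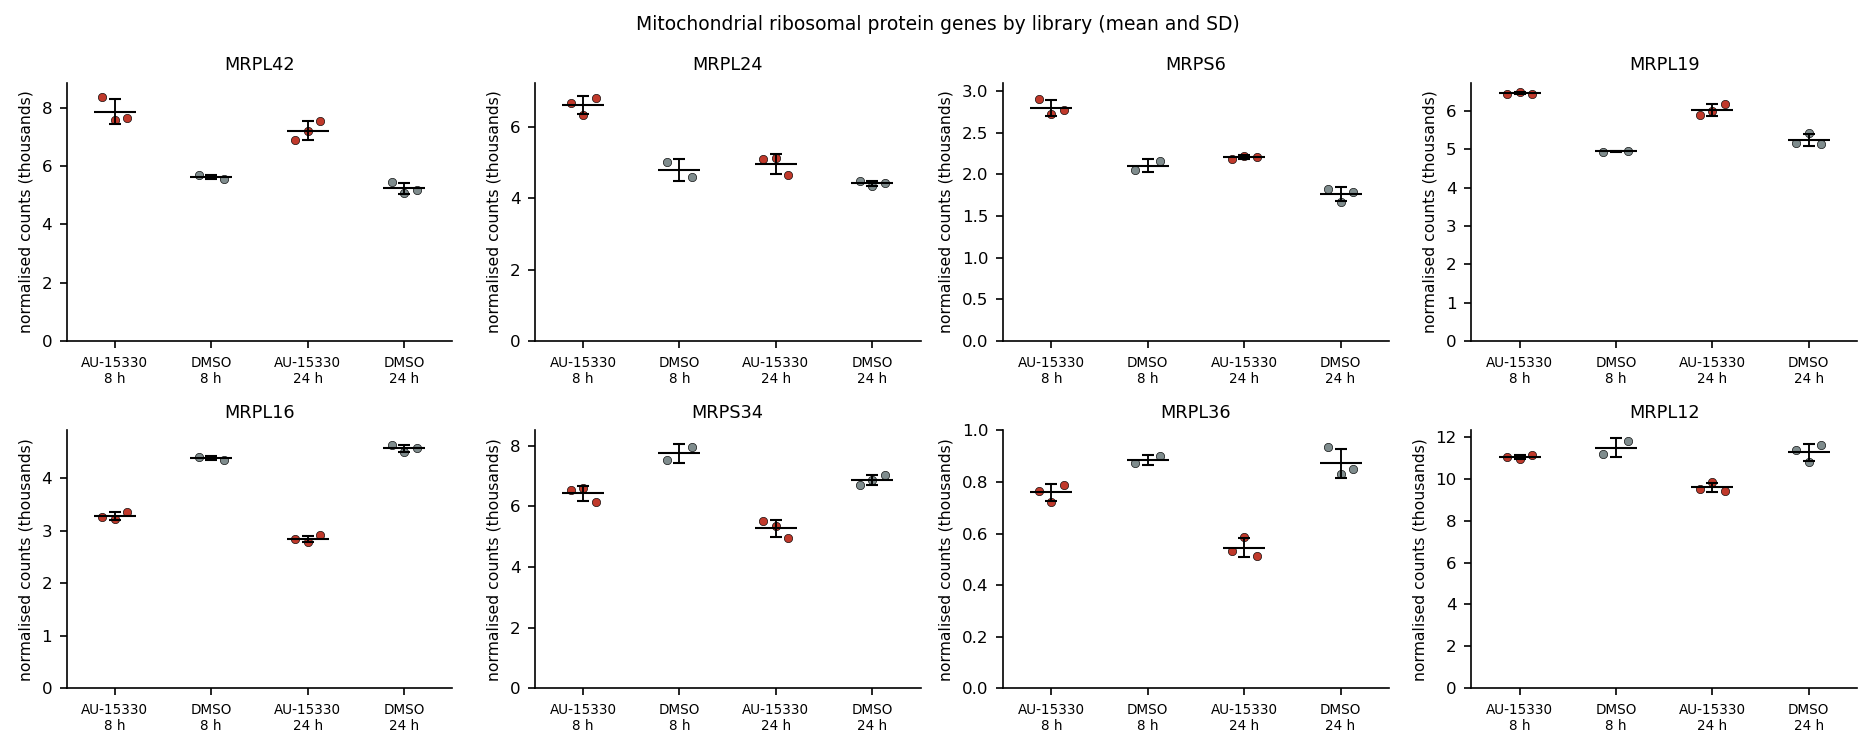
Normalised counts (in units of 1000, axes from 0) of 8 mitochondrial ribosomal protein genes in each library of the 4 groups, with the mean and SD. MRPL42, MRPL24, MRPS6 and MRPL19 are higher and MRPL16 and MRPS34 lower under AU-15330 at both times, and MRPL36 and MRPL12 fell at 24 h.

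The cytosolic subunits called at 8 h were RPL21, RPL30 and RPL28, all of the 60S subunit. RPL21 had 118982, 112082 and 116135 normalised counts in AU-15330 libraries at 8 h, against 106793 and 102904 in DMSO libraries at 8 h, without overlap, and rose by 0.14 ± 0.032 (SE; limma, adjusted p = 0.00313). RPL30 rose by 0.15 ± 0.035 (limma, adjusted p = 0.00409), a call lost without DMSO 8 h replicate 2 (adjusted p = 0.0519, and 0.00218 to 0.0519 over 23 alternatives). RPL28, which has no counterpart in yeast, had 32782, 35489.8 and 36645 normalised counts in AU-15330 libraries at 8 h, against 39385 and 41262 in DMSO libraries at 8 h, and fell by 0.21 ± 0.057 (SE; limma, adjusted p = 0.0127), a call lost without DMSO 8 h replicate 2 (adjusted p = 0.0953, and 0.0097 to 0.0953 over 23 alternatives). The acidic stalk proteins RPLP0, RPLP1 and RPLP2, which recruit translation factors, were not called, at -0.053, -0.087 and 0.0012. RPLP0 had 225805, 217502 and 227464 normalised counts in AU-15330 libraries at 8 h, against 237787 and 226131 in DMSO libraries at 8 h, and the groups overlapped. RPS6, the substrate of the S6 kinases, had 168882, 152105 and 162612 normalised counts in AU-15330 libraries at 8 h, against 160237 and 167804 in DMSO libraries at 8 h, with a difference of -0.026 ± 0.044. RPL5 and RPL11, which bind MDM2 with the 5S RNA, were at 0.065 and -0.0056, and RPS19 and RPS26, genes of Diamond-Blackfan anaemia, at -0.083 and 0.081, none of them called.

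At 24 h calls in the mitochondrial ribosome went both ways, and most of those in the cytosolic ribosome were rises. Of the 77 mitochondrial standard subunits 15 rose and 11 fell, and of the 76 cytosolic ones 13 rose and 5 fell (limma). Over all entries tested 50.9% were called, 24.7% higher and 26.2% lower. The medians were 0.0076 for mitochondrial and 0.038 for cytosolic subunits, against 0.0088 for all entries. The 28S subunit had 6 rises and 2 falls, the 39S subunit 9 and 9, the 40S subunit 3 and 0, and the 60S subunit 10 and 5. The split depended on the scaling. With counts scaled without the cytosolic ribosomal protein entries, 26 mitochondrial subunits rose and 6 fell, and 37 cytosolic ones rose and 1 fell. With quantile normalisation these were 20 and 6 mitochondrial and 30 and 4 cytosolic subunits, and on log2(CPM + 1) 23 and 6, and 32 and 2. With library medians centred they were 15 and 9, and 16 and 3. All entries shifted too, from 3146 rises and 3330 falls to 4056 and 2791 when scaled without cytosolic entries. They were 3855 and 2913 with quantile normalisation, 3883 and 2869 on log2(CPM + 1), and 3578 and 3079 with medians centred. Scaled without cytosolic entries, the median was 0.0675 for all entries, 0.0692 for mitochondrial and 0.1015 for cytosolic subunits. Against 18 cytosolic calls in all, 12 were made without AU-15330 24 h replicate 1 or 2 and 11 without DMSO 24 h replicate 3.

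MRPL42 was again the mitochondrial subunit with the largest rise, with 6894, 7192 and 7531 normalised counts in AU-15330 libraries at 24 h, against 5443, 5079.7 and 5181 in DMSO libraries at 24 h. The difference was 0.46 ± 0.048 (SE), or 1.37-fold (limma, adjusted p = 1.57e-05). MRPS28 had 2014, 2191 and 2089 normalised counts in AU-15330 libraries at 24 h, against 1674, 1464 and 1585 in DMSO libraries at 24 h and differed by 0.40 ± 0.058 (SE; limma, adjusted p = 0.000136). Neither gene's groups overlapped. MRPL34, MRPS6, MRPS15 and MRPL11 followed, at 0.32 ± 0.070, 0.32 ± 0.050, 0.23 ± 0.051 and 0.20 ± 0.049 (limma, adjusted p of 0.000362 to 0.00538). MRPL34 had also risen at 8 h, by 0.27 ± 0.078, a call lost without any of 2 libraries (adjusted p = 0.157 without DMSO 8 h replicate 1, and 0.0124 to 0.157 over 23 alternatives). The genes higher at both times were 9, MRPL19, MRPL24, MRPL34, MRPL37, MRPL42, MRPL50, MRPS5, MRPS6 and MRPS28, that is 9 of the 30 higher at 8 h and 9 of the 15 higher at 24 h. Over all entries 22.9% were called higher at 8 h and 24.7% at 24 h. The share of all entries higher at both times was not counted, so the overlap is not read as particular to these genes. The call of MRPL24 at 24 h, at 0.16 ± 0.051, was lost without any of 4 libraries (adjusted p = 0.0883 without AU-15330 24 h replicate 2, and 0.00382 to 0.0883 over 23 alternatives). That of MRPL50 at 24 h was lost without any of 3 libraries (limma, adjusted p = 0.0891 without DMSO 24 h replicate 2, and 0.0044 to 0.0891 over 23 alternatives).

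MRPL16 and MRPS34 were lower at both times. MRPL16 had 2835, 2781 and 2908 normalised counts in AU-15330 libraries at 24 h, against 4623, 4493 and 4576 in DMSO libraries at 24 h, a wide gap, and fell by 0.67 ± 0.037 (SE; limma, adjusted p = 6.6e-08). MRPS34 had 5506, 5351 and 4972 normalised counts in AU-15330 libraries at 24 h, against 6717, 6869.5 and 7038 in DMSO libraries at 24 h, and fell by 0.38 ± 0.047 (SE; limma, adjusted p = 5.03e-05). MRPL36 (chr5:1798386-1801366), the small zinc-binding counterpart of bacterial L36, had 534, 586 and 514 normalised counts in AU-15330 libraries at 24 h, against 936, 829.9 and 849 in DMSO libraries at 24 h. It fell by 0.62 ± 0.073 (SE; limma, adjusted p = 3.32e-05), or to 0.649 of the DMSO level on this scale. At 8 h it had 765, 724 and 789.9 under AU-15330, against 872 and 899.6 in DMSO, a difference that did not pass limma's threshold (-0.21 ± 0.082, SE). MRPL17, MRPL12 and MRPL2 fell by 0.28 ± 0.066, 0.23 ± 0.036 and 0.20 ± 0.050 (limma, adjusted p = 0.00444, 0.000317 and 0.00539). MRPS2 fell by 0.13 ± 0.042 (limma, adjusted p = 0.0207), a call lost without any of 2 libraries (adjusted p = 0.092 without DMSO 24 h replicate 3, and 0.0129 to 0.186 over 23 alternatives) and under 4 other scalings. MRPS12, MRPS27 and MRPS30, higher at 8 h, were not called at 24 h, at -0.023, 0.062 and 0.018, and neither were MRPL10, MRPL58, MRPS18A, MRPS18B and MRPS18C, at -0.12, -0.16, -0.098, -0.15 and 0.13.

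Among cytosolic subunits at 24 h, RPL21 and RPL35A showed the largest rises. RPL21 had 130078, 128692 and 126766 normalised counts in AU-15330 libraries at 24 h, against 107659, 106655 and 105659 in DMSO libraries at 24 h, and differed by 0.27 ± 0.028 (SE), or 1.2-fold (limma, adjusted p = 1.04e-05). RPL35A, also a Diamond-Blackfan anaemia gene, had 39643, 39721 and 40208 normalised counts in AU-15330 libraries at 24 h, against 33742, 32882 and 33959 in DMSO libraries at 24 h, and differed by 0.25 ± 0.039 (SE; limma, adjusted p = 0.000278). In both genes all AU-15330 libraries lay above all DMSO libraries. RPL12, a protein of the stalk base, had 94629, 100507 and 96375 normalised counts in AU-15330 libraries at 24 h, against 83748, 83851 and 85788 in DMSO libraries at 24 h, and differed by 0.20 ± 0.028 (SE; limma, adjusted p = 9.12e-05). The other rises lay between 0.084 (RPL22) and 0.17 (RPL38), and the call of RPL22 was lost without any of 4 libraries (adjusted p = 0.0941 without DMSO 24 h replicate 3, and 0.000996 to 0.0941 over 23 alternatives). The calls of RPL34, RPS3, RPS4X, RPL7 and RPL30 were lost without any of 5, 4, 4, 3 and 2 libraries. Their limma adjusted p then reached 0.106, 0.115, 0.0924, 0.104 and 0.073. RPS4X also missed the threshold with quantile normalisation (limma, adjusted p = 0.25).

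The 5 that fell were RPL28, RPL10, RPL8, RPL3 and RPL14. RPL28 had 35758, 37865 and 34189.6 normalised counts in AU-15330 libraries at 24 h, against 40967, 39209 and 42972 in DMSO libraries at 24 h, and fell by 0.19 ± 0.051 (SE; limma, adjusted p = 0.00855). The call missed the threshold with quantile normalisation and with scaling without cytosolic entries (adjusted p = 0.0505 and 0.0538, and 0.00519 to 0.0538 over 23 alternatives). RPL10, among the last proteins to join the large subunit, had 110608, 111989 and 110944 normalised counts in AU-15330 libraries at 24 h, against 129069, 122655 and 127534 in DMSO libraries at 24 h, and fell by 0.18 ± 0.026 (SE; limma, adjusted p = 0.000106). RPL8 fell by 0.11 ± 0.028 and RPL3 and RPL14 by 0.076 ± 0.030 and 0.069 ± 0.027 (limma, adjusted p = 0.00543, 0.0459 and 0.05, the last just under the threshold). The call of RPL3 was lost without any of 8 libraries (adjusted p = 0.151 without DMSO 24 h replicate 1, and 0.0142 to 0.74 over 23 alternatives), that of RPL14 lost without any of 7 libraries (adjusted p = 0.167 without DMSO 24 h replicate 1, and 0.0295 to 0.881 over 23 alternatives), and both missed the threshold under 5 other scalings and that of RPL8 under 3. The remaining subunits picked out for their roles were not called. RPLP0 had 225229, 230757 and 231779 normalised counts in AU-15330 libraries at 24 h, against 242155, 237649 and 241035 in DMSO libraries at 24 h, at -0.068 ± 0.028. All AU-15330 libraries of RPLP0 lay below all DMSO libraries. It missed the threshold (limma, adjusted p = 0.0558) but passed under 5 of 23 alternatives. RPS6 had 164372, 167516 and 158530.2 normalised counts in AU-15330 libraries at 24 h, against 171903, 167268 and 172916 in DMSO libraries at 24 h, at -0.063 ± 0.039. RPLP1, RPLP2, RPL5, RPL11, RPL26, RPS19 and RPS26 were at -0.056, 0.12, 0.076, 0.021, 0.098, -0.022 and 0.070. RPS27, RPS29, RPL36A, RPL37 and RPL39, which are short proteins, were at -0.036, 0.11, 0.015, 0.030 and -0.068 at 24 h, and at 0.013, 0.027, -0.019, 0.0082 and 0.043 at 8 h.

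**Figure D4:**
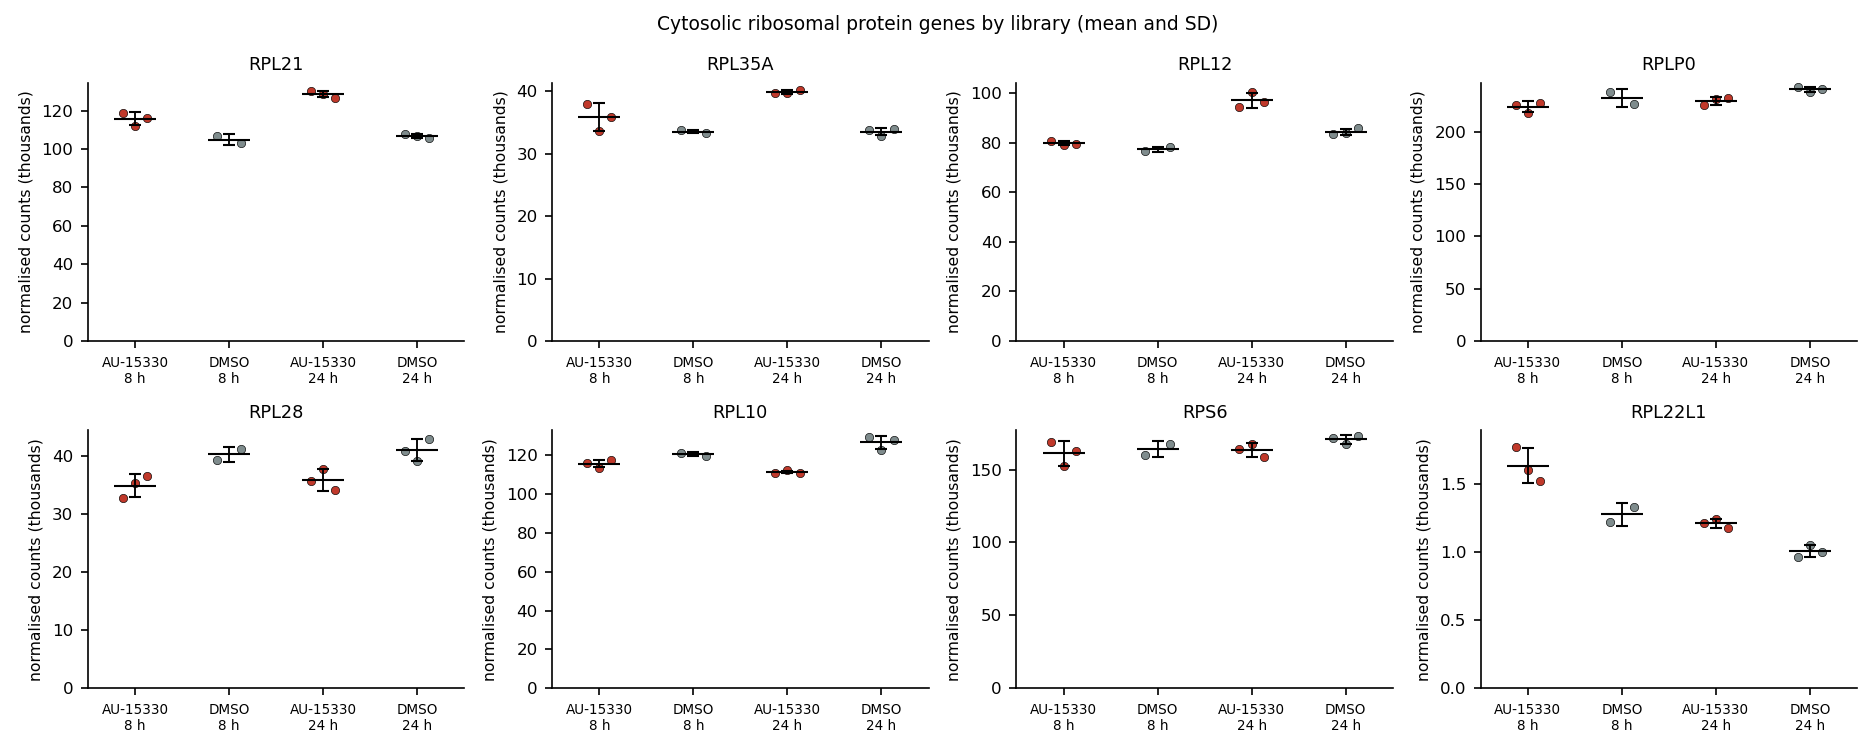
Normalised counts (in units of 1000, axes from 0) of 7 cytosolic subunits and the paralogue RPL22L1 in each library of the 4 groups, with the mean and SD. RPL21, RPL35A and RPL12 stand apart from DMSO at 24 h, RPL28 lies lower under AU-15330 at both times, and RPLP0 and RPS6 were called at neither time.

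Some paralogues are known to replace a standard subunit in some ribosomes, and others to act outside them. Of the 6 tested, 2 rose at 8 h, and 3 rose and 1 fell at 24 h (limma). The shares of all entries called were 44.2% at 8 h and 50.9% at 24 h. RPL22L1 rose at both times. It had 1771, 1602 and 1520.2 normalised counts in AU-15330 libraries at 8 h, against 1217 and 1333 in DMSO libraries at 8 h, and 1210.5, 1244 and 1174 normalised counts in AU-15330 libraries at 24 h, against 963, 1050.3 and 998 in DMSO libraries at 24 h. The differences were 0.34 ± 0.077 at 8 h and 0.26 ± 0.069 at 24 h (SE; limma, adjusted p = 0.00318 and 0.0126), against 0.069 and 0.084 for RPL22. RPL26L1 was called at 24 h, at 0.29 ± 0.054 (limma, adjusted p = 0.0011), with 0.14 ± 0.061 at 8 h, a value that did not pass, and RPL26 was called at neither time. RPL7L1, which acts in the making of the large subunit, rose at 8 h by 0.26 ± 0.042 (limma, adjusted p = 0.00044) and was at 0.041 ± 0.038 at 24 h. RPL36AL fell at 24 h by 0.16 ± 0.036 and RPL39L rose by 0.16 ± 0.053 (limma, adjusted p = 0.00276 and 0.0248), the call of RPL39L being lost without any of 4 libraries (adjusted p = 0.0782 without DMSO 24 h replicate 2, and 0.00589 to 0.0782 over 23 alternatives). RPS27L was not called for AU-15330, at -0.13 and 0.045. RPL3L, a muscle paralogue, was below the filter, at 6.38 to 24.4 normalised counts in all libraries. RPL10L, a testis paralogue, is not a member.

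RPS19BP1, known to bind RPS19 and SIRT1, fell at both times, by 0.23 ± 0.059 at 8 h and by 0.23 ± 0.053 at 24 h (SE; limma, adjusted p = 0.00756 and 0.00453). The 8 h call was lost without DMSO 8 h replicate 2 (adjusted p = 0.0882, and 0.00387 to 0.0882 over 23 alternatives). Pseudogene and read-through entries share most of their sequence with standard genes, so how reads were divided among them is uncertain. Of the 43 pseudogenes tested 3 rose and 2 fell at 8 h, and 1 rose and 3 fell at 24 h. These were 11.6% and 9.3% of them, against 44.2% and 50.9% of all entries tested. Their median SE at 8 h was 0.14, against 0.087 for all entries. RPL13P5 had 486, 372 and 406 normalised counts in AU-15330 libraries at 8 h, against 245 and 187 in DMSO libraries at 8 h, and 406, 435 and 403 normalised counts in AU-15330 libraries at 24 h, against 179, 173 and 187 in DMSO libraries at 24 h. It rose by 0.80 ± 0.12 and by 0.98 ± 0.11 (SE; limma, adjusted p = 0.00032 and 2.62e-05), while RPL13 was at -0.012 and -0.013. RPL12P38 fell by 0.56 ± 0.062 and by 0.65 ± 0.055 (SE; limma, adjusted p = 1.91e-05 and 1.92e-06), against 0.046 and 0.20 for RPL12.

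RPL23AP82 and RPL23AP7 rose at 8 h, by 0.64 ± 0.14 and 0.52 ± 0.18 (limma, adjusted p = 0.00304 and 0.0387), and RPS2P5 fell by 0.18 ± 0.049 (limma, adjusted p = 0.0112). The RPL23AP7 call was lost without any of 6 libraries (adjusted p = 0.168 without DMSO 8 h replicate 1, and 0.00914 to 0.168 over 22 alternatives), and the RPS2P5 call lost without DMSO 8 h replicate 2 (adjusted p = 0.0927, and 0.00576 to 0.0927 over 23 alternatives). RPL36AP21 and RPS2P32 fell at 24 h, by 0.32 ± 0.081 and 0.33 ± 0.10 (limma, adjusted p = 0.00841 and 0.0194), the RPS2P32 call being lost without any of 3 libraries (adjusted p = 0.0657 without AU-15330 24 h replicate 2, and 0.0151 to 0.0657 over 22 alternatives). The read-through RPS10-NUDT3 had 3580.0, 3567 and 3539 normalised counts in AU-15330 libraries at 8 h, against 2249 and 2212 in DMSO libraries at 8 h, and 3055, 3070.4 and 2673 normalised counts in AU-15330 libraries at 24 h, against 2618, 2558 and 2311 in DMSO libraries at 24 h. It rose by 0.66 ± 0.069 and by 0.23 ± 0.062 (SE; limma, adjusted p = 1.77e-05 and 0.00982), against 0.034 and 0.11 for RPS10. RPL17-C18orf32 rose at 8 h by 1.04 ± 0.35 (limma, adjusted p = 0.0333), with libraries of 346, 268 and 151 normalised counts under AU-15330, against 63.4 and 116 in DMSO, a call lost without any of 4 libraries (adjusted p = 0.201 without DMSO 8 h replicate 1, and 0.00501 to 0.201 over 22 alternatives).

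Whether the effect of AU-15330 changed between the times was tested as the difference of the 24 h and the 8 h differences. For the mitochondrial ribosome 14 of 77 standard subunits had a lower effect at 24 h and none a higher one (28 lower and 0 higher at an unadjusted p under 0.05), with a median change of -0.12, and for the cytosolic ribosome 1 of 76 was lower and 1 higher, with a median of 0.022 (limma). Over all entries 18.5% were called, 7.54% higher and 11.0% lower, with a median of -0.022. Cytosolic calls were 8 higher and none lower under 4 of the 5 other scalings, and 2 higher with library medians centred. The mitochondrial count rests on the scaling and on single libraries. It was 1 with counts scaled without the cytosolic entries, 4 with quantile normalisation, 9 with library medians centred, 4 on log2(CPM + 1) and 3 on log2(CPM + 5), and between 2 (without DMSO 8 h replicate 1) and 14 with a library left out, being 9 or lower except without AU-15330 8 h replicate 2 (14) or DMSO 8 h replicate 2 (11). The median change kept its sign under these scalings, between -0.093 and -0.045. Over all entries 959 changes were higher and 1399 lower, against 1350 and 824 when scaled without the cytosolic entries.

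The 3 largest such changes were in MRPL36, MRPL1 and MRPS12, at -0.42 ± 0.11, -0.34 ± 0.084 and -0.32 ± 0.077 (SE; limma, adjusted p = 0.0286, 0.0176 and 0.014). That of MRPL36 was lost without any of 7 libraries (adjusted p = 0.0889 without DMSO 8 h replicate 1, and 0.0158 to 0.0889 over 22 alternatives), that of MRPL1 lost without DMSO 8 h replicate 1 (adjusted p = 0.0765, and 0.0158 to 0.0765 over 22 alternatives) and that of MRPS12 lost without DMSO 8 h replicate 1 (adjusted p = 0.059, and 0.0124 to 0.059 over 22 alternatives). MRPL1 had 2505, 2628 and 2666 normalised counts in AU-15330 libraries at 8 h, against 2183 and 2377 in DMSO libraries at 8 h, and 2144, 2130.0 and 2006 normalised counts in AU-15330 libraries at 24 h, against 2465, 2338 and 2212 in DMSO libraries at 24 h. It was called higher at 8 h (0.19 ± 0.063) and lower at 24 h (-0.15 ± 0.056), with limma adjusted p of 0.0303 and 0.0402, the 8 h call lost without any of 3 libraries (adjusted p = 0.225 without DMSO 8 h replicate 1, and 0.0251 to 0.225 over 23 alternatives) and the 24 h call lost without any of 6 libraries (adjusted p = 0.151 without DMSO 24 h replicate 1, and 0.0254 to 0.195 over 23 alternatives) and under 5 other scalings. MRPL16 kept the call on its change with each library left out in turn and under these scalings, at -0.26 ± 0.056 (limma, adjusted p = 0.00961). Under cytosolic names RPS10-NUDT3 kept it likewise, at -0.43 ± 0.093 (limma, adjusted p = 0.00837), and RPL12 (0.16 ± 0.042; limma, adjusted p = 0.0233) had its call lost without any of 4 libraries (adjusted p = 0.0774 without DMSO 8 h replicate 2, and 0.00454 to 0.0774 over 22 alternatives).

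**Figure D5:**
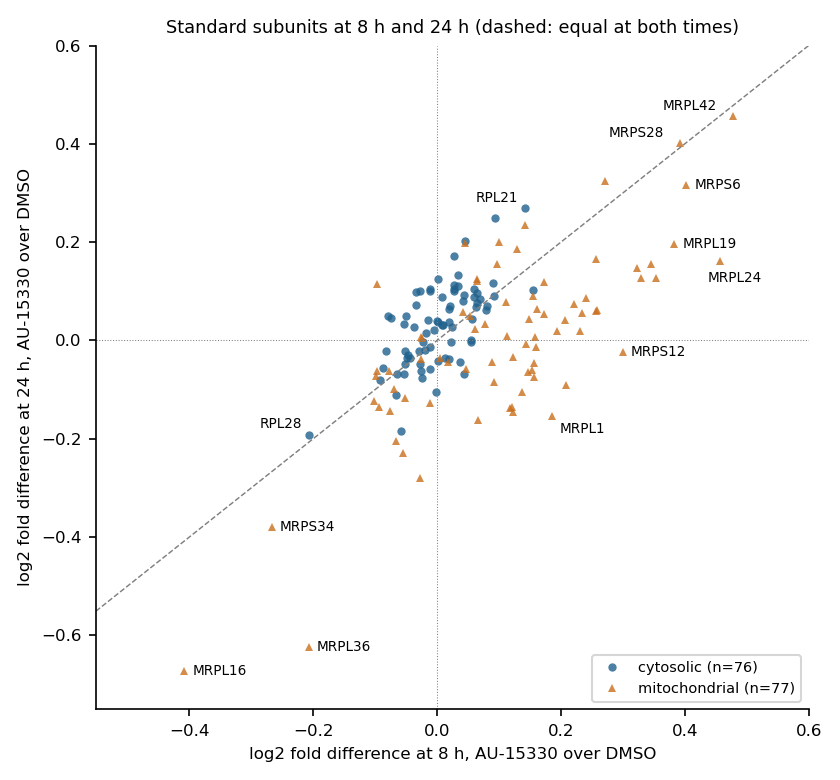
Log2 fold difference (AU-15330 over DMSO) of each standard subunit at 24 h (vertical) against 8 h (horizontal), with the diagonal dashed. Most mitochondrial subunits (triangles, 61 of 77) lie below the diagonal, while the cytosolic ones (circles) gather near the centre, 52 of 76 of them above it.

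Libraries of 24 h and 8 h were also compared within each treatment, although time and batch cannot be told apart. Under AU-15330 42 of 77 mitochondrial standard subunits were lower at 24 h and 3 higher, and 21 of 76 cytosolic ones were higher and none lower (limma; 29 and 1 at an unadjusted p under 0.05). Over all entries 39.4% were called, 18.3% higher and 21.1% lower. The medians were -0.15 for mitochondrial, 0.064 for cytosolic and -0.012 for all entries. In DMSO 3 mitochondrial subunits were lower and 1 higher, and 4 cytosolic ones were higher and none lower (limma; 18 and 0 at an unadjusted p under 0.05), with 10.1% of all entries called, 6.56% higher and 3.56% lower. With 1 library left out these DMSO counts lay between 1 and 6 in all for mitochondrial and 0 and 5 for cytosolic subunits. MRPL18, a protein of the 39S subunit picked after its values were seen, had the largest of these differences, with 3975, 3912 and 3959 normalised counts under AU-15330 at 24 h, against 6217, 5593 and 5965 under AU-15330 at 8 h. In DMSO it had 3965, 3814 and 3905 at 24 h, against 4980.1 and 5097 at 8 h. The differences were -0.58 ± 0.043 under AU-15330 and -0.37 ± 0.048 in DMSO (SE; limma, adjusted p = 3.06e-06 and 0.00101). RPS27L, a p53 target, was higher at 24 h in both, by 0.55 ± 0.052 and 0.38 ± 0.058 (limma, adjusted p = 1.46e-05 and 0.002).

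Ribosomal proteins that do not carry these symbols were looked at beside them. Of the cytosolic RPSA, FAU and RACK1, none was called at 8 h by limma (1 at an unadjusted p under 0.05) and FAU rose at 24 h, at 0.15 ± 0.031 (limma, adjusted p = 0.00204, and 0.00018 to 0.0106 over 22 alternatives). RACK1 and RPSA were at -0.068 and -0.045. Of the mitochondrial DAP3, PTCD3, AURKAIP1, CHCHD1 and GADD45GIP1, none was called at 8 h by limma (0 at an unadjusted p under 0.05) and PTCD3 fell at 24 h, at -0.14 ± 0.050 (limma, adjusted p = 0.0374), a call lost without any of 4 libraries (adjusted p = 0.117 without AU-15330 24 h replicate 1, and 0.0204 to 0.317 over 22 alternatives) and under 5 other scalings. GADD45GIP1 was at 0.15 and DAP3 at 0.093.

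Genes that serve the mitochondrial ribosome were read against the shares of all entries called, which were 22.9% higher and 21.4% lower at 8 h, and 24.7% higher and 26.2% lower at 24 h. Of 26 genes of its assembly 12 rose and 3 fell at 8 h, and 6 rose and 8 fell at 24 h, with medians of 0.12 and 0.0035. MPV17L2, which joins the large subunit's assembly, fell by 0.68 ± 0.063 at 24 h, MTG1, an assembly GTPase, rose by 0.42 ± 0.050, and FASTKD2, an RNA-binding protein, fell by 0.30 ± 0.037 (limma, adjusted p = 4.67e-06, 3.2e-05 and 4.4e-05). Of 15 mitochondrial translation factors 4 rose and none fell at 8 h, and 1 rose and 2 fell at 24 h. The initiation factor MTIF2 and the elongation factor TSFM fell, by 0.29 ± 0.051 and 0.18 ± 0.038, and the release factor MTRF1 rose by 0.18 ± 0.067 (limma, adjusted p = 0.000667, 0.00267 and 0.0467). The call of MTRF1 was lost without any of 8 libraries (adjusted p = 0.174 without DMSO 24 h replicate 3, and 0.0118 to 0.174 over 22 alternatives). Of 17 mitochondrial aminoacyl-tRNA synthetases 6 rose and 1 fell at 8 h, and 2 rose and 5 fell at 24 h, led by MARS2, CARS2 and TARS2, at -0.44 ± 0.042, -0.34 ± 0.051 and -0.25 ± 0.053 (limma, adjusted p = 7.5e-06, 0.000207 and 0.0018).

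Lists for the cytosolic ribosome were read against the same shares of all entries. These were 22.9% higher and 21.4% lower at 8 h, and 24.7% higher and 26.2% lower at 24 h. For the cytosolic ribosome, 20 genes listed as elongation factors or for TOP-type starts had 2 rises and 2 falls at 8 h, and 5 rises and 6 falls at 24 h. Not all of them encode translation factors, and their starts were not checked here. EIF3E rose by 0.21 ± 0.033, and EEF1A1, the main elongation factor, and EIF3K fell by 0.16 ± 0.032 and 0.17 ± 0.033 (limma, adjusted p = 0.000278, 0.000701 and 0.00135). Quantile normalisation, which gives the highest entry of each library 1 shared value, left EEF1A1 with no difference. Of 23 initiation and termination factors 10 rose and 3 fell at 8 h, and 5 rose and 6 fell at 24 h, with EIF5A and EIF4A1 falling by 0.39 ± 0.027 and 0.41 ± 0.031 and EIF2S2 rising by 0.25 ± 0.031 (limma, adjusted p = 3.59e-07, 6.68e-07 and 5.14e-05). Of 12 genes that control TOP mRNAs 3 rose and 1 fell at 8 h, and 3 rose and 4 fell at 24 h. LARP1B rose by 0.53 ± 0.053, and CNBP and LARP1 fell by 0.14 ± 0.028 and 0.39 ± 0.083 (limma, adjusted p = 5.3e-06, 0.00129 and 0.0024). With quantile normalisation CNBP was not called (adjusted p = 0.219, and 0.00109 to 0.219 over 22 alternatives). A list of 15 genes held chaperones and importers of ribosomal proteins and factors for the making of the ribosome, RPS19BP1 among them. Of these 8 rose and 1 fell at 8 h, and 1 rose and 3 fell at 24 h. BCCIP rose by 0.19 ± 0.040 and NOB1 fell by 0.20 ± 0.044 (limma, adjusted p = 0.00196 and 0.00265).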

How the data were processed

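RNA-seq of Z138 cells was deposited as 1 table of 20318 entries and 12 value columns. Per the submitters' processing notes, Trimmomatic 0.40, kallisto 0.46.1 (GRCh38.p13) and DESeq2 1.24.0 were used. The deposited log2 values are called log CPM, but their shared minimum of 10.36 and their spacing at low values match a variance-stabilising transform of normalised counts, so this unit differed from the one the design assumed. They were turned back into normalised counts, where 1 CPM is worth 59.4. Whole reads could not be recovered, so no count test was run. Per the labels' protocols, RNA was prepared with a poly(A) or a ribosomal RNA depletion kit and read at 50 bases; the sources used here do not say which kit served which sample, and the strand setting of the counting is not given in them.

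Of 12 labelled samples, 1 column held the values of another and was not used, which left 11 libraries. Entries that reached 1 CPM in 3 or more libraries were tested with limma 3.58.1 (R 4.3.3) on the deposited scale, all groups in 1 fit with a variance trend and Benjamini-Hochberg adjustment over 12721 entries. Fold differences are on log2(normalised count + 60), which understates those of low genes. Named genes were a list chosen for role, the 6 largest rises and falls called in each ribosome and treatment comparison, the 3 largest changes between times in each direction, and the 3 smallest adjusted p-values at 24 h in each other list; genes named beyond this complete a count of calls or are marked. Members and lists were chosen with earlier results of these data known. Of the B-cell marker and other-symbol lists, 1 gene each is not reported here. Alternatives changed the scaling, the log scale, the filter, the samples in the fit, the variance prior, the replicate block, the entry used for a symbol and each library. The procedure was tested on simulated data. Start windows are from RefSeq (GRCh38.p14), gene positions and lengths from GENCODE release 29.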

Additional observations from a re-analysis of the deposited data

Results flagged for a closer look

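The effect of AU-15330 at 24 h was compared with that at 8 h by limma's interaction term, at an adjusted p under 0.05. It differed for 19 genes with ribosomal protein names. It also differed for 31 of the 134 genes of the other lists, 1 higher and 30 lower. Of the members tested, 3.9% of 129 cytosolic and 17.5% of 80 mitochondrial ones were called. Over all entries 18.5% were called, 7.54% higher and 11.0% lower, so neither ribosome exceeded the share of all entries with both directions counted together. All 14 mitochondrial calls were lower, which is 17.5% of members against 11.0% of all entries. That count of 14 was 1 to 9 under the other scalings. Each value here is the log2 difference at 24 h minus that at 8 h, so a negative one marks a gene lower at 24 h relative to its own 8 h effect. For the mitochondrial ribosome these genes were MRPL1 (-0.34), MRPL12 (-0.18), MRPL15 (-0.20), MRPL16 (-0.26), MRPL18 (-0.21), MRPL19 (-0.19), MRPL24 (-0.30), MRPL32 (-0.30), MRPL36 (-0.42), MRPL44 (-0.23), MRPS10 (-0.26), MRPS12 (-0.32), MRPS2 (-0.26) and MRPS25 (-0.21). Under cytosolic names they were RPL36AL (-0.17), RPL7L1 (-0.22), RPS10-NUDT3 (-0.43), RPL10 (-0.13) and RPL12 (0.16).

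Among the genes that serve the ribosomes but carry other names, the same difference was found for PTCD3 (-0.24), MTIF2 (-0.27), TSFM (-0.32), MPV17L2 (-0.44), FASTKD2 (-0.28) and MARS2 (-0.53), which act in mitochondrial translation, and for EIF3K (-0.16), EIF5A (-0.19), CNBP (-0.22), LARP1 (-0.55) and NOB1 (-0.35), which act on cytosolic translation or in the making of its ribosome. These 11 were among the 3 genes of smallest adjusted p at 24 h in their lists. Of the other 20, EIF2S3 (0.20) was higher, a gene singled out here for its direction. The labels give the 2 times separate batches, each with its own DMSO libraries, and the part of batch in these differences was not tested. Of the changes listed, those of MRPL16 and RPS10-NUDT3 passed with each of the 11 libraries left out in turn, while 13 of 14 mitochondrial and 4 of 5 cytosolic ones missed the threshold without at least 1 library. Of the 11 genes with other names, EIF3K, PTCD3 and MTIF2 missed it without any of 10, 9 and 7 libraries (adjusted p up to 0.0986, 0.161 and 0.102), and EIF5A and CNBP under 4 and 1 of 21 alternatives, none of which left out a library.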

How the results depend on the processing

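Counts here are of all members called, pseudogenes and paralogues included, out of 129 cytosolic and 80 mitochondrial members tested. Over all entries 44.2% were called at 8 h, 50.9% at 24 h and 18.5% for the change. Between times 10.1% of all entries were called in DMSO and 39.4% under AU-15330. Cytosolic counts with standard subunits alone are out of 76, a smaller set. At 8 h, 13 cytosolic members were called, and 3 with standard subunits alone. At 24 h, 28 cytosolic members were called, against 46 with quantile normalisation, 51 scaled without cytosolic entries, 45 on log2(CPM + 1), 45 on log2(CPM + 5) and 18 with standard subunits alone. The change of the effect was called for 5 cytosolic members, against 9 with quantile normalisation, without cytosolic entries or on either CPM scale, 3 with no filter and 2 with standard subunits. For the mitochondrial ribosome it was called for 14, against 4 with quantile normalisation, 9 with medians centred, 1 without cytosolic entries, 4 on log2(CPM + 1), 3 on log2(CPM + 5), 8 with no filter and 7 with the replicate block. Between times in DMSO, 9 cytosolic members were called (4 standard subunits) and 4 mitochondrial, against 7 with quantile normalisation or medians centred and 8 without cytosolic entries or on either CPM scale. Between times under AU-15330, 32 cytosolic members were called, 21 of them standard subunits. The cytosolic share of counts at 24 h, AU-15330 minus DMSO, was 0.56 percentage points, and 0.71 against a total without cytosolic entries. Calls over all entries moved too, at 24 h from 3146 rises and 3330 falls to 4056 and 2791 without cytosolic entries. The causes were not tested.

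With 1 library left out, cytosolic calls ranged over 11 to 16 at 8 h, 19 to 36 at 24 h, 1 to 6 for the change, 3 to 10 between times in DMSO and 27 to 36 under AU-15330. Mitochondrial calls ranged over 21 to 35, 19 to 27, 2 to 14, 1 to 6 and 35 to 45. The differences in share ranged from -0.18 to 0.16 (cytosolic, 8 h), 0.50 to 0.63 (cytosolic, 24 h), 0.037 to 0.054 (mitochondrial, 8 h) and 0.018 to 0.026 (mitochondrial, 24 h). With DMSO at 8 h left with 1 library, limma pools the spread and that library is assumed to vary like the others. Of the alternative values of total calls and summed shares, 221 moved by at most 1.5 times or less than the spread, and 51 by more. Medians and the split into rises and falls are not among these values. No call of a named gene turned direction, but medians and shares near 0 did. The cytosolic median between times in DMSO, 0.032 over all members, was -0.0095 with quantile normalisation. The mitochondrial one, -0.024, was 0.0029 without DMSO 24 h replicate 2, and the mitochondrial median at 24 h, 0.0074, was -0.0019 without AU-15330 24 h replicate 3 and -0.0087 without DMSO 24 h replicate 2. The cytosolic median at 8 h, 0.010, was -0.010 without AU-15330 8 h replicate 1 and -0.013 without DMSO 8 h replicate 2, and the cytosolic share at 8 h, at -0.033, was 0.16 without AU-15330 8 h replicate 2 and 0.031 without DMSO 8 h replicate 1. Deviations of same-numbered libraries from their group means were hardly correlated (r of -0.025 and -0.035 at 8 h and 0.030 to 0.045 at 24 h). With 2 or 3 libraries in a group this cannot show whether the numbers pair libraries. The replicate block took the mitochondrial calls of a change from 14 to 7. It moved no other count of all members called by over 1.5 times.

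All 153 standard subunits passed the filter on low values, and 152 cytosolic and 3 mitochondrial members, nearly all pseudogenes, were below the filter. The 2 libraries of DMSO at 8 h limit every 8 h comparison. No protein or translation was measured.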
